A study of Mus musculus with 2 samples.

Results

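Bst2, Ifi27, Ifi35, Ifitm2 and Ifitm3 are interferon-stimulated genes that were read out in single cells of 2 mouse melanoma lines. They are 5 of the 14959 genes in the table of unique molecular identifiers (UMIs, which count captured transcripts). The 5 were chosen by name, with earlier results of these data known. B16F0 is the parental B16 line and B16F10 a derivative labelled as a highly metastatic subclone, and no treatment, age or genotype beyond the line is given in the labels. Each line was 1 library of a 10x Genomics droplet kit that reads the 3' ends of transcripts, with 2582 B16F0 and 1574 B16F10 cells. No difference below therefore has a replicate check, no test was made, and every interval covers counting error only.

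Type I interferons bind a cell-surface receptor whose kinases activate ISGF3, a transcription factor complex. ISGF3 enters the nucleus and binds interferon-stimulated response elements (ISREs) near the start of its target genes. Interferon gamma acts through gamma-activated sites (GAS), and many target genes answer to both kinds of interferon. Some of these genes are nearly silent until the pathway is active, whereas others have a basal level that interferon raises further. Bst2 encodes tetherin, a membrane protein that holds budding enveloped viruses on the cell surface. Ifitm2 and Ifitm3 encode small membrane proteins that block the fusion of viruses with endosomal membranes. Ifi27 encodes a small hydrophobic protein of intracellular membranes, and Ifi35 a leucine-zipper protein that forms a complex with NMI. Isg15, used here to split the cells and reported beside the members, encodes a ubiquitin-like protein that is attached to other proteins during an interferon response.

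The members lie at 4 chromosomes and are annotated as protein-coding in GENCODE M21 on GRCm38. Bst2 lies at chr8:71534255-71537456 on the minus strand, Ifi27 at chr12:103434211-103440239 on the plus strand, and Ifi35 at chr11:101448407-101458698 on the plus strand. Ifitm2 (chr7:140954837-140955987) and Ifitm3 (chr7:141009586-141010770) both lie on the minus strand. An antisense gene, Gm11626, overlaps Ifi35, and Gm45717 overlaps Ifitm2 on the same strand. Neither of these has a row in the counts. Of the 50-base words in the last 500 bases of the coding transcript, 41.9% for Ifitm2 and 14.0% for Ifitm3 also occur in other genes, among them each other's. The share is 0% for Bst2, Ifi27 and Ifi35. The levels of Ifitm2 and Ifitm3 are therefore uncertain to the extent that reads from shared words were dropped or assigned to a copy.

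The 250 bases upstream of the start are printed because ISGF3 commonly binds close to the start of its target genes, and the members differ in whether they hold one. The sequences are from RefSeq on GRCm38.p6 and are written 5' to 3' on the gene's strand: Isg15 chr4:156200819-156201068, Bst2 chr8:71537473-71537722, Ifitm2 chr7:140955962-140956211, Ifitm3 chr7:141010745-141010994 and Ifi35 chr11:101448162-101448411. RefSeq entries matched 4 of the 5 members and Isg15. Ifi27 had no entry. Capitals mark matches to the ISRE core GAAANNGAAA.
Isg15: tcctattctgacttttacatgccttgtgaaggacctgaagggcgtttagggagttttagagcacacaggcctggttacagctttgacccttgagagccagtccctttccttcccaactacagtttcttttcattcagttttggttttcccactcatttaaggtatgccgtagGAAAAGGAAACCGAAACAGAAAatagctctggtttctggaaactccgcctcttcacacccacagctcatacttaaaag
Bst2: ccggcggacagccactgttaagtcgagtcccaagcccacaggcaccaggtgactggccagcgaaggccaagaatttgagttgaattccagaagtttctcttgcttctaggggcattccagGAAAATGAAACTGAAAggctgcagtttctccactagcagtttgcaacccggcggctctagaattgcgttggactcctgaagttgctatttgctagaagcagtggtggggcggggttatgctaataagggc
Ifitm2: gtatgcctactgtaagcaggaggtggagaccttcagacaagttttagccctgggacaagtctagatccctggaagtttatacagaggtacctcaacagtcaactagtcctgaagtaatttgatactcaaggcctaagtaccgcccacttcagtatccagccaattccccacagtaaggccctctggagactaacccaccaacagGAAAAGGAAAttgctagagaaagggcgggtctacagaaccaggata
Ifitm3: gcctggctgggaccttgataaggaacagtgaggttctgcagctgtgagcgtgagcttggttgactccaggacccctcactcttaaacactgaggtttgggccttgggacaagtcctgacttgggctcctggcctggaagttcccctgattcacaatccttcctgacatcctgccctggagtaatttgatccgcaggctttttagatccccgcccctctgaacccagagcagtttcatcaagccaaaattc
Ifi35: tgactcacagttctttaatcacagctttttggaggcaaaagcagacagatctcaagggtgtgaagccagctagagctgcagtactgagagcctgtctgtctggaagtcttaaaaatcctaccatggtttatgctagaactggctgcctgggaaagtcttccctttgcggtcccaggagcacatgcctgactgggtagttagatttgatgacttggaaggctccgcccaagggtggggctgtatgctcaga
Isg15 held 3 overlapping ISRE core matches, between 78 and 57 bases before the start. Bst2 held 2 overlapping matches, GAAAATGAAA at -130 to -121 and GAAACTGAAA at -124 to -115, where -1 is the base just before the start. Its window also held the GAS core TTCNNNGAA, as TTCCAGGAA at -136 to -128, which overlaps the first ISRE match. Ifitm2 held 1 ISRE match, GAAAAGGAAA at -46 to -37. Ifitm3 and Ifi35 held none of either motif. Both strands were searched, and of all 32851 windows of this length, 2.98% held the ISRE core and 7.02% the GAS core. A match is a string of letters and not a shown binding site.

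The libraries were of like depth per cell. They held 94268486 and 56748682 UMIs, with medians of 35503.5 and 34950.5 UMIs per cell, and 6 cell barcodes occurred in both. Levels are given as CPM, UMIs of the gene scaled to a common total of 1000000 UMIs in the library or class. All 10 melanocyte lineage markers were present, with a sum of 9825 CPM for B16F0 and 9757 CPM for B16F10. Of the 10 macrophage markers 3 had a row, summing to 9.60 and 6.84 CPM, and 0 of the 10 T and NK cell markers and 0 of the 5 keratinocyte markers had one. The 5 measured fibroblast markers (of 10) summed to 6.57 and 9.69 CPM, and the 2 measured endothelial markers (of 5) to 66.3 and 63.3 CPM, nearly all of it Egfl7. The only measured B cell marker (of 5), Cd79a, stood at 0.159 and 0.388 CPM. Bst2 also marks plasmacytoid dendritic cells. Of the 3 other markers of those cells only Tcf4 had a row, at 27.9 and 29.7 CPM.

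All 5 members were lower in B16F10. Bst2, Ifi35 and Ifi27 differed most, Ifitm3 less, and Ifitm2 least. B16F0 had 114 CPM of Bst2 (95% Poisson interval 112 to 116) and B16F10 had 47.0 CPM (45.3 to 48.9). It was thus 2.42-fold lower in B16F10, a log2 ratio of -1.27 (95% interval -1.34 to -1.21). Ifi35 stood at 15.9 and 7.01 CPM, a log2 ratio of -1.18 (-1.34 to -1.02). Its intervals were the widest, because it had only 1497 UMIs in B16F0 and 398 in B16F10. Ifi27 stood at 155 and 85.4 CPM, a log2 ratio of -0.86 (-0.90 to -0.81). Ifitm3 stood at 139 and 83.3 CPM, a log2 ratio of -0.74 (-0.79 to -0.69). Ifitm2 stood at 199.8 and 156 CPM, a log2 ratio of -0.36 (-0.39 to -0.32), and was 1.28-fold lower. Isg15 differed more than any member, with 28.8 and 7.03 CPM and a log2 ratio of -2.03 (-2.19 to -1.88).

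A gene was counted as higher or lower when its levels differed by a factor of 1.5 or more and the higher one reached 20 CPM. By this size rule 3 of the 4 members that reached 20 CPM were lower in B16F10, namely Bst2, Ifi27 and Ifitm3, beside 6.12% of the 5296 genes that reached it. Ifi35 did not reach 20 CPM and Ifitm2 did not reach 1.5-fold. The median log2 ratio of the 5 members was -0.86, against 0.12 over all genes past the minimum. Scaling by TMM or DESeq2 factors moved all line ratios by -0.097 or -0.10 and left each member lower in B16F10. Among the 5296 genes, 47 had a lower ratio than Bst2, 122 than Ifi27, 185 than Ifitm3 and 726 than Ifitm2. Ifitm3 fell short of 1.5-fold among cells without an Isg15 UMI, at a log2 ratio of -0.47, and among non-cycling cells, at -0.54. In bulk sums such as these, fewer cells with the transcript and less transcript per cell cannot be told apart. The shares of cells below do not separate them either, since detection at a fixed depth also falls when each cell holds less transcript.

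The lower level in B16F10 was also present inside the classes of cells that both lines share. The authors' deposited cell table assigns clusters, trajectory states and a cycling class, and a class was used where it held at least 50 cells of a line. Clusters C3 and C4 and states 1 and 7 were the ones that both lines filled. Bst2 was lower in B16F10 in each of these, with log2 ratios of -1.39 in C3, -2.19 in C4, -0.78 in state 1 and -1.16 in state 7. Among these 4 classes the gap was widest in C4 for every member except Ifi35, for which it was widest in C3 (-1.45, against -1.29 in C4). In C4 Bst2 was at 114 CPM among B16F0 cells and 24.8 CPM among B16F10 cells. Ifi27 (-1.33), Ifitm3 (-1.31) and Ifitm2 (-0.77, -0.90 to -0.65) also differed more in C4 than over all cells, and there Ifitm2 was past 1.5-fold. Among the clusters and states, Ifitm2 in state 1 was the one value near 0. In state 1 the B16F0 cells had 153 CPM and the B16F10 cells 152 CPM, a log2 ratio of -0.01 (-0.10 to 0.09). In state 7 its ratio was -0.13 (-0.21 to -0.04). Whether the members' own counts entered the making of the clusters and states is not given in the sources used, so these class levels are descriptions.

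**Figure D1:**
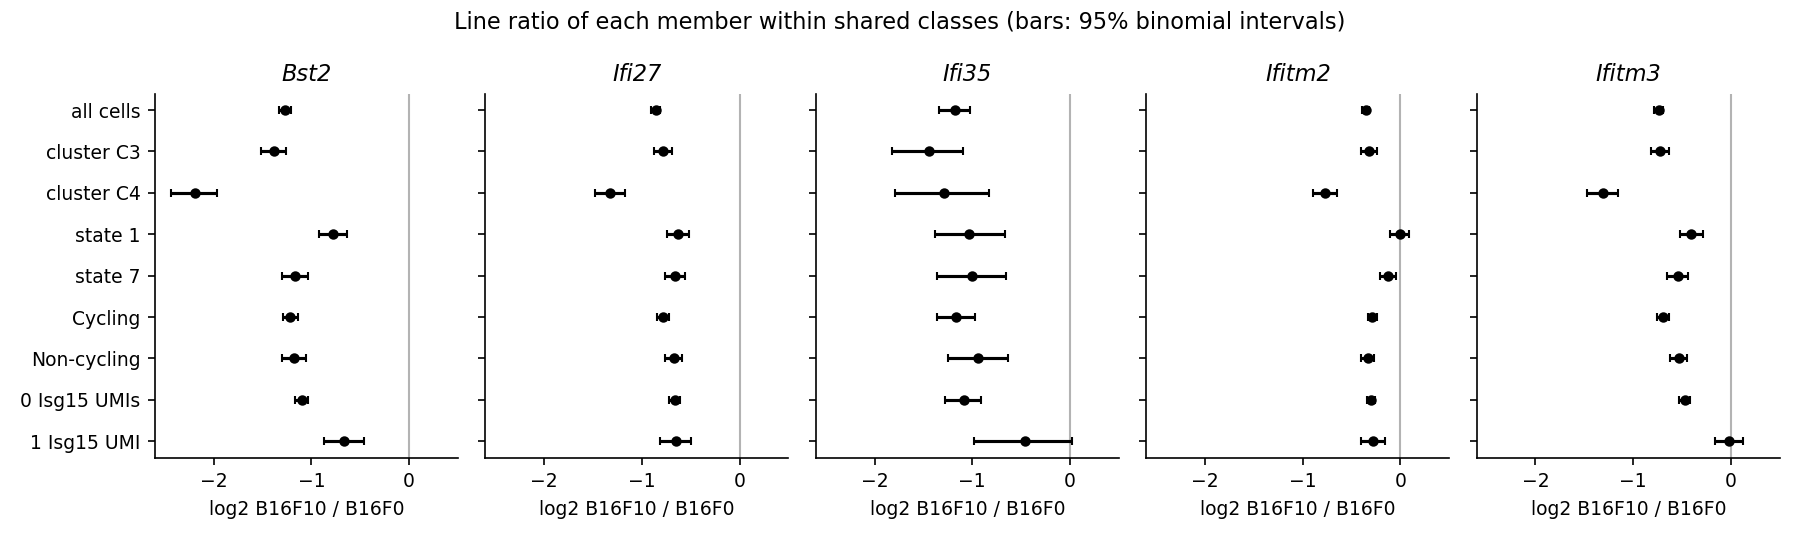
Log2 ratio of B16F10 over B16F0 (x axis) for each member, over all cells and within each class that both lines share (y axis). Points are ratios of CPM and bars are 95% binomial intervals that cover counting error only. Nearly all points lie below 0, and Ifitm2 in state 1 (-0.01) and Ifitm3 among cells with 1 Isg15 UMI (-0.02) lie next to 0.

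Cells with an Isg15 UMI had more of every member in both lines, and Ifitm3 had the highest ratio in each. An Isg15 UMI was found in 608 B16F0 cells (23.5%) and 122 B16F10 cells (7.75%). Ifitm3 stood at 241 CPM in B16F0 cells with an Isg15 UMI and at 104 CPM in those without. Its level in B16F10 was 174 CPM with and 75.3 CPM without. The log2 ratio was 1.21 in both lines (1.16 to 1.26 in B16F0 and 1.10 to 1.32 in B16F10). Bst2 came next in B16F0, and in B16F10 after Ifi35. Tetherin transcripts stood at 171 and 94.0 CPM in B16F0, a log2 ratio of 0.86 (0.81 to 0.92). They stood at 82.2 and 43.9 CPM in B16F10, a ratio of 0.91 (0.75 to 1.06).

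The other members split into Ifi27 and Ifi35, which also differed, and Ifitm2, which hardly did. Ifi27 stood at 222 and 132 CPM in B16F0, a log2 ratio of 0.75 (0.70 to 0.80). It stood at 112 and 83.1 CPM in B16F10, a ratio of 0.43 (0.29 to 0.56). The difference between the lines in this ratio was not tested. Ifi35 stood at 22.5 and 13.6 CPM in B16F0 (log2 ratio 0.72, 0.57 to 0.88) and at 14.0 and 6.39 CPM in B16F10 (1.13, 0.72 to 1.51). Ifitm2 stood at 227 and 191 CPM in B16F0 (0.25, 0.21 to 0.30) and at 173 and 155 CPM in B16F10 (0.16, 0.05 to 0.27). Ifitm2 thus differed by less than 1.5-fold in both lines. Of the printed windows, that of Ifitm2 holds 1 ISRE core match and that of Ifitm3 none.

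By the size rule, 4 of 5 members were higher in B16F0 cells with an Isg15 UMI, beside 0.307% of 4879 genes (15 genes, Isg15 itself left out). Ifi35 reached 20 CPM only in the cells with an Isg15 UMI, where it is high, so its place in this count follows from the minimum, and 3 of the other 4 members were higher. In B16F10, 2 of the 4 members past 20 CPM were higher, Bst2 and Ifitm3, beside 0.287% of 5235 genes (15 genes). Ranked by this ratio among the genes past 20 CPM, Ifitm3 was 6th and Bst2 9th in each line. Genes below that minimum were not ranked, and some had higher ratios, such as Rtp4 (2.99 in B16F0). Ifi27 was 10th and Ifi35 11th in B16F0, while Ifi27 was 36th in B16F10. Ifitm2 was 135th in B16F0 and 492nd in B16F10. The 5 genes ahead of Ifitm3 were Ifit1, Ifit3, Ccl5, Cxcl10 and Rsad2 in both lines (named after their values were seen). They encode interferon-induced antiviral proteins and chemokines, and in cells without an Isg15 UMI they stood at 0.599 CPM (Ifit1) to 8.26 CPM (Rsad2) in B16F0. In both lines these 5 genes reached 20 CPM only in the cells with an Isg15 UMI, so their places follow from the minimum.

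**Figure D2:**
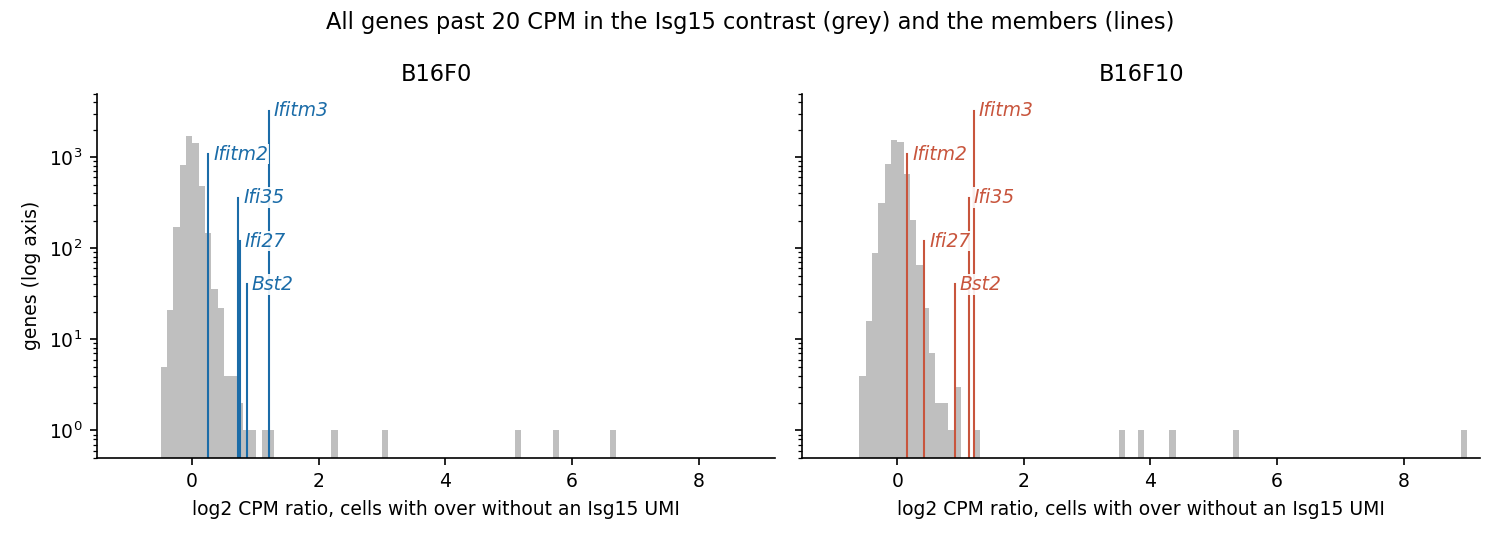
Log2 CPM ratio of cells with over cells without an Isg15 UMI (x axis) for all genes that reached 20 CPM (grey bars, number of genes on a log axis), in B16F0 and in B16F10, with the members as labelled lines. Ifitm3 lies at 1.21 in both lines, beyond nearly all genes, and Ifitm2 lies inside the bulk at 0.25 and 0.16. The height of a line has no meaning, and Ifi35 in B16F10 is drawn although it did not reach 20 CPM.

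The cells with an Isg15 UMI differed from the rest in other measures too. Their median depth was 37950 UMIs against 34627.5 in B16F0, and 37616.5 against 34585 in B16F10. Cycling cells made up 47.5% of them against 56.8% in B16F0, and 69.7% against 78.9% in B16F10. Their median mitochondrial share was 5.34% against 5.36% in B16F0 and 6.17% against 6.75% in B16F10. The 3 measured macrophage markers summed to 12.1 against 8.73 CPM in B16F0 and 7.30 against 6.80 CPM in B16F10. The part of these measures in the member differences was not tested. With every cell thinned to 23173 UMIs before the split, which leaves out shallower cells and changes which cells have an Isg15 UMI, the log2 ratio was 1.27 for Ifitm3, 0.92 for Bst2, 0.68 for Ifi27, 0.84 for Ifi35 and 0.23 for Ifitm2 in B16F0. It was 1.37 for Ifitm3, 1.13 for Bst2, 0.35 for Ifi27, 1.10 for Ifi35 and 0.16 for Ifitm2 in B16F10. Among non-cycling cells the ratio of Ifitm3 was 1.04 in B16F0 and 1.35 in B16F10.

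The size of the difference followed the number of Isg15 UMIs. Among B16F0 cells, 1974 had 0 Isg15 UMIs, 369 had 1, 133 had 2 to 3 and 106 had 4 or more. Ifitm3 stood at 104, 138, 201 and 609 CPM in this order. Bst2 stood at 94.0, 103, 151 and 409 CPM. For both genes most of the difference lay in the last step, and cells with a single Isg15 UMI were near those with none in Bst2. The last bin has no upper limit. Isg15 itself stood at 0, 25.6, 57.6 and 450 CPM in the same order, so the last step is also the widest in Isg15. Ifi27 stood at 132, 177, 261 and 319 CPM, with a more even course over these bins of unequal width. Ifi35 stood at 13.6, 15.8, 20.2 and 46.2 CPM. Ifitm2 stood at 191, 219, 229 and 250.1 CPM, so that even the cells with 4 or more Isg15 UMIs were only 1.31-fold above those with none. In these cells Ifitm3 was 5.84-fold, Bst2 4.35-fold, Ifi35 3.39-fold and Ifi27 2.42-fold above the cells with none.

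In B16F10 too, Ifitm3 had the highest ratio and Ifitm2 the lowest at the top of the Isg15 range, on few cells. Its cells numbered 1452 with 0, 93 with 1, 15 with 2 to 3 and 14 with 4 or more Isg15 UMIs. Ifitm3 stood at 75.3, 137, 160 and 426 CPM. Bst2 stood at 43.9, 64.9, 86.2 and 190.3 CPM. In cells with 4 or more the log2 ratio over cells with none was 2.50 for Ifitm3 (2.31 to 2.69) and 2.12 for Bst2 (1.82 to 2.40), next to 2.55 and 2.12 in B16F0. For Ifi35 it was 2.43 (1.68 to 3.10), on 19 UMIs. For Ifi27 it was 0.79 (0.45 to 1.11). The interval of Ifitm2 included 0, at 0.29 (-0.01 to 0.57). The bin with 2 to 3 UMIs went against the course for Ifi27 (73.4 CPM), Ifi35 (11.5 CPM at 1 UMI and 9.17 CPM at 2 to 3) and Ifitm2, and it rests on 15 cells.

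**Figure D3:**
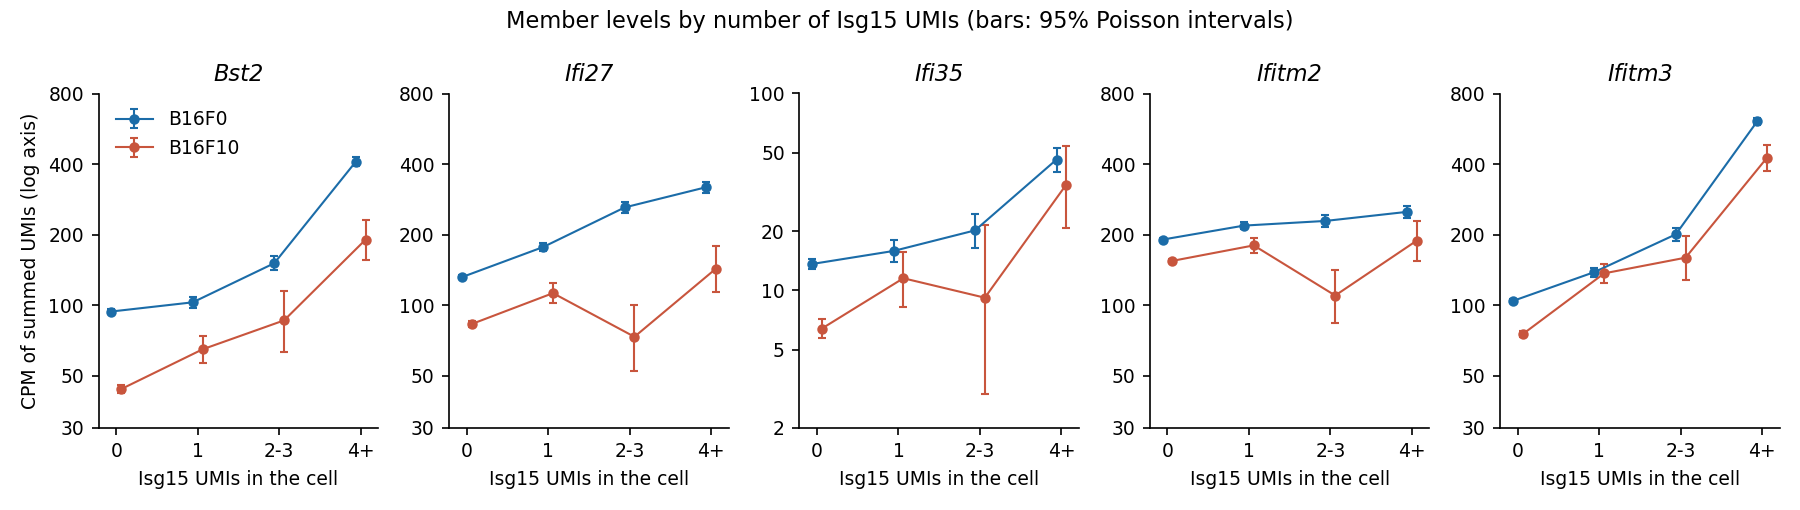
CPM of each member (y axis, log scale, Ifi35 on a lower range) by the number of Isg15 UMIs in the cell (x axis), with 95% Poisson intervals, for B16F0 and B16F10. Ifitm3 goes from 104 to 609 CPM and Bst2 from 94.0 to 409 CPM in B16F0, while Ifitm2 goes from 191 to 250.1 CPM. The B16F10 points at 2 to 3 and at 4 or more rest on 15 and 14 cells.

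A small group of cells thus carried much of the difference. The 106 B16F0 cells with 4 or more Isg15 UMIs were 4.11% of the cells and held 4.83% of all UMIs. They held 21.1% of the Ifitm3 UMIs, 17.4% of the Bst2 UMIs, 14.0% of the Ifi35 UMIs, 9.94% of the Ifi27 UMIs and 6.04% of the Ifitm2 UMIs. The highest count in a single B16F0 cell was 161 for Ifitm3 and 155 for Bst2, where the median cell had 3 of each. Without those 106 cells the log2 ratio with over without an Isg15 UMI in B16F0 was 0.30 for Bst2, 0.57 for Ifitm3 and 0.32 for Ifi35, all below 1.5-fold, and 0.60 for Ifi27, still above it. In B16F10 the 14 such cells were 0.889% of the cells, and without them the ratio was 0.63 for Bst2 and 0.89 for Ifitm3, both above 1.5-fold.

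Matched by Isg15 UMIs, the lines differed less in some members and bins and more in others. Among cells with none, the log2 ratio of B16F10 over B16F0 was -1.10 for Bst2 and -1.09 for Ifi35. It was -0.66 for Ifi27, -0.47 for Ifitm3 and -0.30 for Ifitm2. All 5 members were thus lower in B16F10 among these cells too, each by less than over all cells. Among cells with exactly 1 Isg15 UMI, the B16F0 cells had 138 CPM of Ifitm3 and the B16F10 cells 137 CPM, a ratio of -0.02 (-0.16 to 0.13). In the same cells Bst2 stood at 103 and 64.9 CPM, a ratio of -0.67 (-0.87 to -0.46). With 2 to 3 Isg15 UMIs, on 133 and 15 cells, the gap was wider than over all cells for Ifi27 (-1.83, -2.32 to -1.38) and Ifitm2 (-1.06, -1.46 to -0.68). In these cells it was -0.81 for Bst2, -1.14 for Ifi35 and -0.33 for Ifitm3. With 4 or more, on 106 and 14 cells, it was -1.15 for Ifi27, -1.10 for Bst2, -0.52 for Ifitm3, -0.42 for Ifi35 and -0.41 for Ifitm2.

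Shares of cells with a UMI were compared after thinning to 23173 UMIs, which kept 2194 B16F0 and 1416 B16F10 cells and left out 388 and 158 shallower ones. Ifitm2 was detected in 97.4% of B16F0 and 92.5% of B16F10 cells. Ifi27 was detected in 88.3% and 76.9%, and Ifitm3 in 85.1% and 75.1%. These 3 genes were broadly detected in both lines. Bst2 was detected in 85.8% of B16F0 cells (95% Clopper-Pearson interval 84.2 to 87.2) but in 56.5% of B16F10 cells (53.9 to 59.1). Ifi35 was detected in 27.6% (25.8 to 29.5) and 14.0% (12.2 to 15.9), so that the description as broadly expressed is not borne out for it at this depth. Unthinned, the shares were 98.2% and 96.9% for Ifitm2, 92.8% and 88.3% for Ifi27, 89.9% and 85.1% for Ifitm3, 90.2% and 67.7% for Bst2, and 38.6% and 20.4% for Ifi35. The part of free RNA from lysed cells was not tested, since neither line holds cells that should lack these transcripts.

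Cells with and without an Isg15 UMI were also compared by detection and by the upper tail of thinned counts. In thinned B16F0 cells, Bst2 was detected in 88.3% of the 410 cells with an Isg15 UMI and in 85.2% of the 1784 without. For Ifitm3 the shares were 90.2% and 83.9%, and for Ifi35 35.4% (30.7 to 40.2) and 25.8% (23.8 to 27.9). The intervals of Ifitm3 and Ifi35 were apart and those of Bst2 overlapped. In B16F10, Ifitm3 was detected in 91.0% of cells with (82.4 to 96.3) and 74.1% without (71.7 to 76.5), and Ifi35 in 25.6% (16.4 to 36.8) and 13.3% (11.5 to 15.2). The tail differed more. At 8 or more UMIs in B16F0, Ifitm3 was found in 19.5% of cells with and 3.31% of cells without an Isg15 UMI. For Bst2 this was 11.0% and 1.29%. For Ifitm2 it was 20.7% and 12.9%, a smaller difference. In B16F10 cells 8 or more Ifitm3 UMIs were found in 17.9% of the 78 cells with and 1.64% of the 1338 without an Isg15 UMI.

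**Figure D4:**
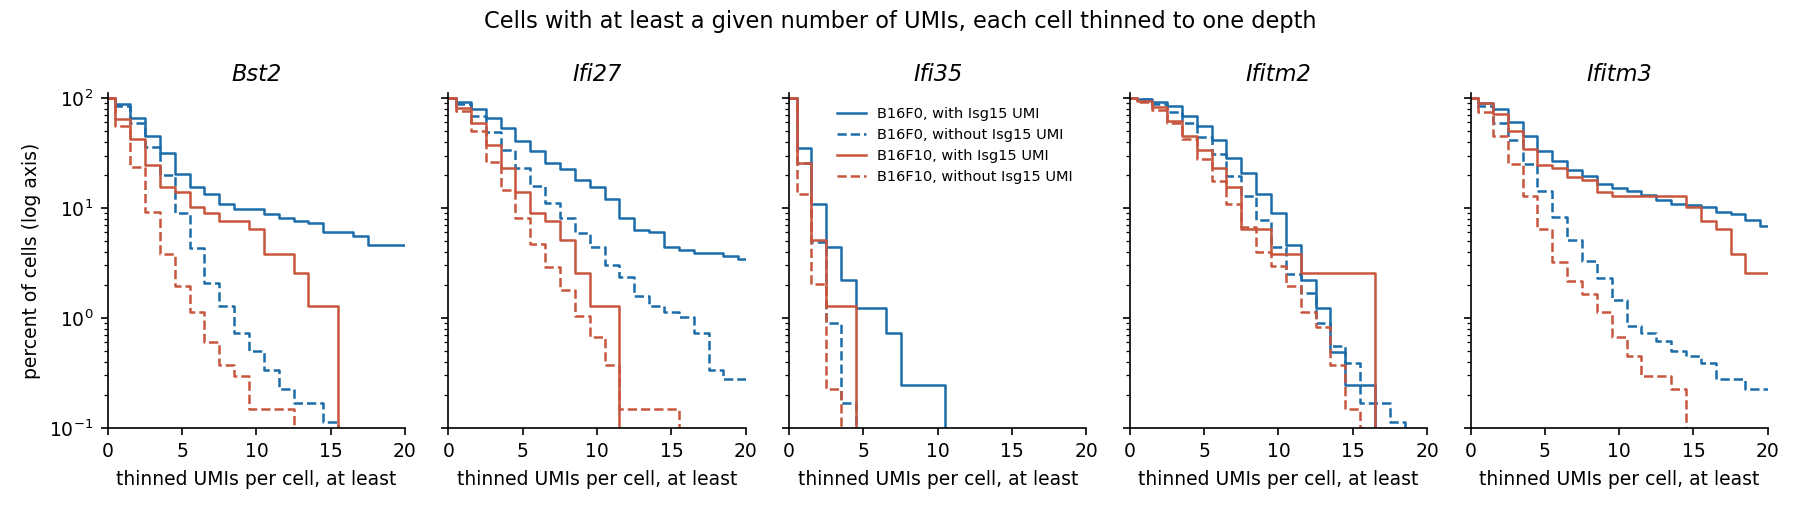
Percent of thinned cells (y axis, log scale) with at least the number of UMIs on the x axis, for each member, by line and by whether an Isg15 UMI remained after thinning. The solid lines of Bst2 and Ifitm3 (cells with an Isg15 UMI) leave the dashed ones at high counts, for example 19.5% against 3.31% at 8 UMIs of Ifitm3 in B16F0, while the lines of Ifitm2 stay close.

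The spread between cells was measured by the Fano factor of thinned UMIs, the variance divided by the mean, which is 1 for pure counting noise. In B16F0 it was 6.83 for Ifitm3 and 4.44 for Bst2. Among B16F0 cells without an Isg15 UMI it was 2.33 and 1.59. Ifi27 kept more of its spread, with 3.58 over all cells and 2.91 without an Isg15 UMI. For Ifitm2 it was 1.61 in both. In B16F10 the Fano factor was lower for Ifitm3, at 2.75, and for Bst2, at 2.20. Mean thinned counts were lower there too, at 1.89 against 3.16 in B16F0 for Ifitm3 and 1.04 against 2.57 for Bst2. The Fano factor can rise with the mean, and the part of the mean in this difference was not tested.

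UMIs of several members were often found in the same cell, as will happen for any broadly detected genes. Whether the members met more often than their single shares of cells would give was not tested. UMIs of all 5 were present in 19.5% of thinned B16F0 cells and in 5.72% of thinned B16F10 cells. Among B16F0 cells the share was 28.0% of those with and 17.5% of those without an Isg15 UMI. Among B16F10 cells it was 17.9% (10.2 to 28.3) and 5.01% (3.90 to 6.32). UMIs of 4 members were present in 52.4% and 35.0% of cells of the lines. Cells with none of the 5 numbered 8 of 1416 in B16F10 (0.565%). They numbered 0 of 2194 in B16F0, which by the limit of 3 counts allows a share of up to 0.137% (Clopper-Pearson upper bound 0.168%), a limit on cells with a UMI and not on cells that express the genes.

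Across thinned cells within a line, the members' counts were weakly correlated. These correlations are descriptions over 2194 and 1416 cells of 1 library each, and weak ones in sparse counts are no finding. Pearson's r of the log counts was 0.34 in B16F0 and 0.26 in B16F10 between Bst2 and Ifitm3. It was 0.35 and 0.21 between Ifi27 and Ifitm3, and 0.21 and 0.18 between Ifitm2 and Ifitm3. With Isg15, r was 0.36 and 0.23 for Ifitm3 but 0.09 and 0.04 for Ifitm2. Among 9811 genes, those most alike to Bst2 by the mean r of both lines were Ifitm3 (0.30), Ifi27 (0.26) and B2m (0.22), the light chain of MHC class I. For Ifitm3 they were Bst2 (0.30), Isg15 (0.29) and Ifi27 (0.28). Ifi27 was most like Ifitm3 (0.28), B2m (0.28) and Itm2b (0.27). Ifi35 had Ifi27 (0.16), Ubb (0.15) and Ifitm3 (0.15). Ifitm2 stood apart, as its nearest genes were Ppia (0.39), a cyclophilin, Dbi (0.34), which encodes the acyl-CoA-binding protein, and Prdx1 (0.31), a peroxidase.

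Between the deposited clusters of B16F0, 4 of the members had the same order and Ifitm2 another. Cluster C3 was highest and C2 lowest for Bst2, Ifi27, Ifi35 and Ifitm3. Bst2 stood at 149.9 CPM in C3, 114 in C4, 107 in C1 and 87.2 in C2. Ifitm3 stood at 185, 143, 139.6 and 92.1 CPM in the same order. For each of the 4 genes the intervals of C4 and C1 overlapped, and those of C3 and C2 were apart from their neighbours within the line. Ifi27 ranged from 201 CPM in C3 to 109.8 CPM in C2, and Ifi35 from 20.5 to 10.9 CPM. Ifitm2 was highest in C1, at 229 CPM, followed by C3 at 210.2 CPM, and its levels in C4 (178 CPM) and C2 (171 CPM) overlapped. Isg15 stood at 36.9 CPM in C3, 32.6 in C4, 28.0 in C1 and 19.3 in C2, the order of the 4 genes, with overlapping intervals in C3 and C4.

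In B16F10, cluster C3 was highest for all 5 members and C4 lowest. Bst2 stood at 57.4 CPM in C3, 48.1 in C5 and 24.8 in C4. Ifitm3 stood at 112, 80.3 and 57.7 CPM, and Ifi27 at 117, 80.8 and 63.9 CPM. The intervals of the 3 clusters were apart for these genes. Ifitm2 stood at 168, 161 and 104 CPM, with overlapping intervals in C3 and C5. Ifi35 stood at 7.52, 6.88 and 6.72 CPM, and its intervals overlapped throughout. The highest B16F10 cluster overlapped a B16F0 cluster for Ifi27 (C3 with C2 of B16F0) and for Ifitm2, and for Ifitm3 C3 of B16F10 lay above C2 of B16F0 with intervals apart. For Bst2 and Ifi35 every B16F0 cluster was above every B16F10 cluster. Clusters C1 and C2 held 7 and 4 B16F10 cells and C5 held 13 B16F0 cells, so a cluster level there stands for 1 library.

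Between the trajectory states, state 6 of B16F0 was the highest for Bst2 (135 CPM), Ifi35 (18.0 CPM), Ifitm2 (239 CPM) and Ifitm3 (171 CPM). State 7 had intervals that overlapped those of state 6 for Bst2 (126 CPM), Ifi35 (17.5 CPM) and Ifitm3 (159.6 CPM), and for Ifi27 it was the highest at 183 CPM against 179.9 CPM. Ifitm2 differed here, as state 7 lay lower than state 6, at 189.8 CPM. State 1 was the lowest B16F0 state for Bst2 (77.2 CPM), Ifi27 (122 CPM), Ifitm2 (153 CPM) and Ifitm3 (102 CPM). Ifi35 stood at 13.4 CPM in both state 1 and state 4. In B16F10 state 7 was above state 1 for all 5, for example at 56.2 and 45.0 CPM for Bst2 and at 109 and 77.4 CPM for Ifitm3, with overlapping intervals for Ifi35 only. The Isg15 level was likewise highest in state 6 of B16F0, at 40.5 CPM.

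**Figure D5:**
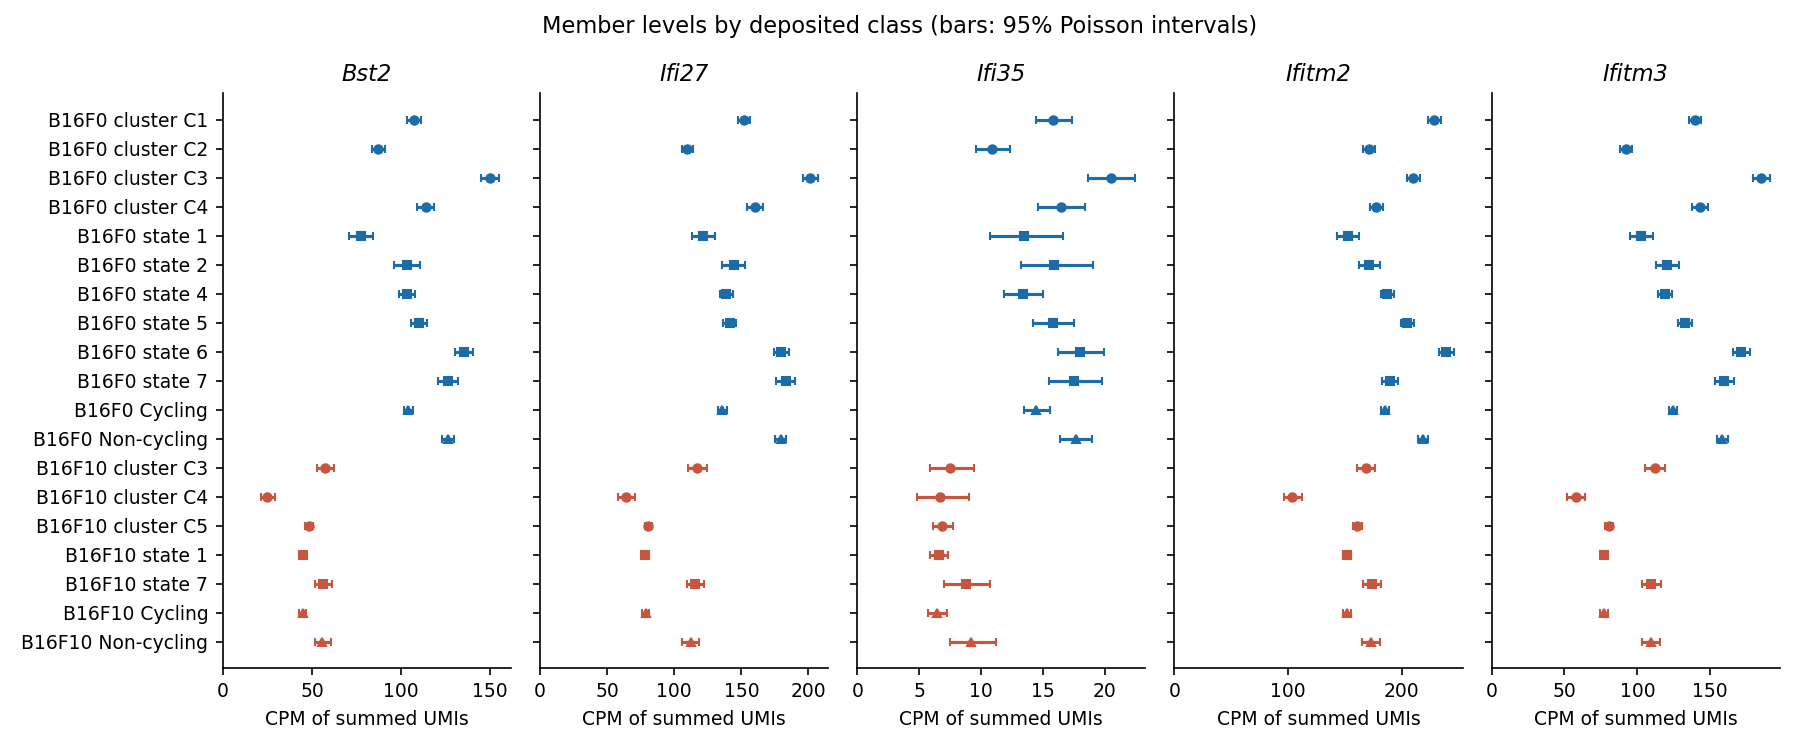
CPM of each member (x axis, from 0) in each deposited class with at least 50 cells of the line (y axis), with 95% Poisson intervals. Circles are clusters, squares trajectory states and triangles the cycling class. Bst2 ranges from 77.2 to 149.9 CPM over the B16F0 classes and from 24.8 to 57.4 CPM over the B16F10 classes, without overlap, whereas the 2 ranges of Ifitm2 overlap.

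Non-cycling cells had more of every member than cycling cells, by less than 1.5-fold. In B16F0 the log2 ratio of cycling over non-cycling cells was -0.40 for Ifi27, -0.35 for Ifitm3, -0.29 for Ifi35, -0.28 for Bst2 and -0.24 for Ifitm2. In B16F10 it was -0.51 for Ifi27 and for Ifi35, -0.50 for Ifitm3, -0.31 for Bst2 and -0.19 for Ifitm2. Ifi27, for instance, stood at 136 CPM in cycling and 179 CPM in non-cycling B16F0 cells, and at 78.9 and 112 CPM in B16F10. By the size rule 0 of the 4 members past 20 CPM were lower in cycling cells of either line, beside 1.03% of genes in B16F0 and 3.43% in B16F10. The line difference had the same direction in both classes. Bst2 was lower in B16F10 by a log2 ratio of -1.21 among cycling cells and -1.18 among non-cycling cells.

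The other genes of the interferon pathway were taken from lists of pathway genes, leaving out the members. Of 60 interferon-stimulated effectors 54 had a row, and 6 reached 20 CPM in the line comparison. Of these, 4 were lower and 0 higher in B16F10, beside 6.12% of all genes lower and 10.6% higher. Their median log2 ratio was -1.05, against 0.12 over all genes past the minimum. Isg15 and Lgals3bp reached 20 CPM only in B16F0, where they are high, so the count of lower genes follows in part from the minimum. The largest differences were those of Isg15, Lgals3bp and B2m. Lgals3bp, a secreted glycoprotein that binds galectins, had 40.8 CPM in the B16F0 library and 14.3 CPM in the B16F10 library. B2m stood at 436 and 188 CPM, a log2 ratio of -1.22. In the split by Isg15 UMIs, 5 of 9 effectors past the minimum were higher in B16F0 and 4 of 8 in B16F10, beside 0.307% and 0.287% of all genes, and 0 were lower. Ifit1, Ifit3 and Rsad2 in both lines reached 20 CPM only in the cells with an Isg15 UMI, as did Lgals9 in B16F0 and Lgals3bp in B16F10. These are all the higher effectors in B16F10 and all but Lgals3bp in B16F0. The count in B16F10 thus follows wholly from the minimum, and that in B16F0 largely. Neither can be read against the share of all genes. Ifit1, which binds viral RNA that lacks host-type caps, stood at 60.2 CPM with and 0.599 CPM without an Isg15 UMI in B16F0.

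The receptor and signalling genes were few above the minimum. All 21 genes of the receptor and ISGF3 list had a row and 4 reached 20 CPM, of which 1 was higher and 0 lower in B16F10, beside 10.6% of all genes higher and 6.12% lower. With 4 genes these counts do not set the list apart from all genes, and the 1 higher gene, Stat3, reached 20 CPM only in B16F10. Stat3, a transcription factor downstream of cytokine receptors, had 15.8 CPM in the B16F0 library and 24.1 CPM in the B16F10 library, a log2 ratio of 0.61. Jak1, a kinase of the interferon receptors, stood at 39.5 and 53.3 CPM, a ratio of 0.43. Ifngr2, a chain of the interferon gamma receptor, stood at 43.9 and 51.3 CPM, a ratio of 0.22. In the Isg15 split 0 of 3 genes of this list past the minimum were higher in B16F0 and 0 of 4 in B16F10. Of 17 nucleic acid sensors 15 had a row and 0 reached 20 CPM. Of the 7 genes of the Isg15 conjugation list 6 had a row, and only Isg15 itself reached 20 CPM in the line comparison. None of the 10 interferon genes of the list had a row. Of the 5 other IFITM family genes 3 had a row, and of the 3 other genes of the Ifi27 family 1 had a row, all below 5 CPM in both lines.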

How the data were processed

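Single-cell 3' RNA libraries of B16F0 and B16F10 were made with the 10x Chromium v2 kit, with a single library for each line, per the labels' protocols. Per the submitters' processing notes, the tools were Cell Ranger 3.0.0 and Seurat 3.0 and the genome was mm10. The sources used here give neither aligner settings nor cell filters. The authors deposited raw UMI counts of 14959 genes in 4156 cells, per the file headers, and a table with the line, cluster, cycling class and trajectory state of each cell, which served to group the cells. The deposited natural log values, pseudotime and scores were not used. The sources used here do not say how the authors made these classes. No doublet caller was run.

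The members and gene lists were chosen with earlier results of these data known. Counts were summed per class and divided by the class total to CPM, with exact Poisson 95% intervals. Ratios carry exact conditional binomial intervals and shares exact Clopper-Pearson intervals, all for counting error only. Cells are not replicates, so no p-value was computed. Against a count of 0, the limit of 3 counts is 0.0318 CPM for B16F0 and 0.0529 CPM for B16F10. A gene was counted at 1.5-fold with 20 CPM in the higher group. For shares and correlations, 23173 UMIs were drawn from each cell without replacement, a depth set at the 10th percentile for B16F10. The text names the 5 members, Isg15, up to 3 genes per list by the size of the line ratio at 20 CPM, and 3 genes per member by mean Pearson's r of ln(1 + thinned UMI) among genes with a mean of 0.05 thinned UMI in both lines. Other genes were named after their values were seen.

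Alternatives were TMM (edgeR 4.0.16) and DESeq2 1.42.0 size factors on the summed counts, other totals, sets of cells, Isg15 cuts and CPM minimums. Scripts ran in R 4.3.3 and in Python 3.11.15 with scipy 1.17.1, pandas 2.3.3, numpy 2.4.6 and matplotlib 3.10.9, and the ratio and thinning steps were tested on simulated counts. Positions are from GENCODE M21 on GRCm38, the assembly also known as mm10.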

Additional observations from a re-analysis of the deposited data

How the results depend on the processing

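Each line had 1 library, so nothing below speaks to variation between cultures, and depth limits Ifi35 and the B16F10 cells with 2 or more Isg15 UMIs most. No paired analysis was possible because each line has only 1 sample. A value is given where it left the counting interval of the value above, which is narrow, and the cause of a shift was not tested. Every member was lower in B16F10 under all 7 alternatives of the line ratio, and lower in cycling cells under all alternatives run. In the Isg15 split every member was higher under all alternatives, except Ifitm2 in B16F10 with 2 or more Isg15 UMIs against 0, where the log2 ratio was -0.048.

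For the line, TMM and DESeq2 factors gave log2 ratios of -1.37 and -1.38 for Bst2, -0.95 and -0.96 for Ifi27, -0.453 and -0.459 for Ifitm2, and -0.837 and -0.843 for Ifitm3. Non-cycling cells gave -1.18 for Bst2, -0.68 for Ifi27, -0.94 for Ifi35 and -0.54 for Ifitm3. Cells without an Isg15 UMI gave -1.10 for Bst2, -0.66 for Ifi27, -0.30 for Ifitm2 and -0.47 for Ifitm3. The mean of per-cell CPM gave -0.80 for Ifi27 and -0.67 for Ifitm3, and leaving out the 5% deepest cells gave -0.69 for Ifitm3. For the cycling ratio of Ifitm3 in B16F10, cells without an Isg15 UMI gave -0.39.

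For the Isg15 split, 2 or more UMIs against 0 gave 1.53 for Bst2, 1.13 for Ifi27, 1.25 for Ifi35, 0.33 for Ifitm2 and 1.91 for Ifitm3 in B16F0. In B16F10 it gave 1.66 for Bst2, 1.78 for Ifi35 and 1.96 for Ifitm3. Thinned cells gave 0.92 for Bst2, 0.68 for Ifi27 and 1.27 for Ifitm3 in B16F0, and 1.13 for Bst2 and 1.37 for Ifitm3 in B16F10. The mean of per-cell CPM gave 0.80 for Bst2 and 1.15 for Ifitm3 in B16F0, and leaving out the 5% deepest cells gave 0.80 and 1.15 as well. Non-cycling cells gave 0.80 for Bst2, 0.62 for Ifi27 and 1.04 for Ifitm3 in B16F0, and 1.17 for Bst2 and 1.35 for Ifitm3 in B16F10. Both following alternatives were chosen after seeing the data. Exactly 1 UMI against 0 gave 0.13 for Bst2, 0.43 for Ifi27, 0.22 for Ifi35, 0.20 for Ifitm2 and 0.41 for Ifitm3 in B16F0, and 0.56 for Bst2 and 0.86 for Ifitm3 in B16F10. Leaving out cells with 4 or more UMIs gave 0.30 for Bst2, 0.60 for Ifi27, 0.32 for Ifi35 and 0.57 for Ifitm3 in B16F0, and 0.63 for Bst2 and 0.89 for Ifitm3 in B16F10.

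With a minimum of 5 CPM instead of 20 CPM, 12 of 22 effectors past it were lower in B16F10, beside 6.59% of all genes. Among the lower ones, Ifit3, Trim25, Samd9l and Irgm1 reached 5 CPM only in B16F0. At 5 CPM 13 of 26 were higher with an Isg15 UMI in B16F0 and 14 of 27 in B16F10, beside 0.559% and 1.13% of all genes. Of these higher genes, Lgals3bp and Lgals9 in both lines also reached 5 CPM without an Isg15 UMI, as did Rsad2 and H2-K1 in B16F0. All others passed only through the cells where they are high, so these counts follow largely from the minimum. With 50 CPM the counts were 2, 2 and 1. At 5 CPM the Isg15 conjugation list had 2 genes lower in B16F10, and 2 (B16F0) and 1 (B16F10) higher with an Isg15 UMI. At 50 CPM its count of lower genes was 0. The receptor and ISGF3 list had 1 lower at 5 CPM, and 1 and 2 higher with an Isg15 UMI. The nucleic acid sensors had 2 lower, and 2 and 2 higher.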

Other observations

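Some genes outside the interferon lists ranked among the members in the Isg15 split, and they are named here after their values were seen. Besides the chemokines Ccl5 and Cxcl10, S100a6, which encodes a calcium-binding protein, was the only such gene past 1.5-fold in both lines. It stood at 57.5 CPM with and 26.3 CPM without an Isg15 UMI in B16F0, a log2 ratio of 1.13 (95% interval 1.03 to 1.23). In B16F10 it stood at 38.2 and 19.9 CPM, a ratio of 0.94 (0.70 to 1.17). In B16F0 Ass1, an enzyme of arginine synthesis, stood at 48.8 and 30.4 CPM (0.68, 0.58 to 0.78). In B16F10 genes close to Bst2 in rank were Trp53inp1, a p53 target (21.3 and 10.8 CPM, log2 ratio 0.98), and Mxd4, a MYC antagonist of the MXD family (38.4 and 21.1 CPM, 0.87). In B16F10 S100a6 and Trp53inp1 reached 20 CPM only in the cells with an Isg15 UMI, as did Ccl5 and Cxcl10 in both lines. Their places in these ranks therefore follow from the minimum. Whether the genes named here differ between the lines in this ratio was not tested.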
